A study of Arabidopsis thaliana with 14 samples.

Results

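The genes described here are the 100 Arabidopsis genes, of 34218 counted, that stood highest above untreated leaves in every leaf sample taken 24 h after a silk microneedle, whether or not the needle carried gibberellin. For each gene, the score was the lowest log2(CPM + 1) among the 6 libraries at 24 h minus the highest among the 3 untreated libraries, CPM being counts scaled to a common total of counts in genes. The 100 genes with the highest scores are the members. They were thus chosen by the levels in the 9 libraries at 0 h and 24 h, and the rise between 0 h and 24 h is given as a description with no test.

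RNA sequencing was done on rosette leaves of ft-10, a line with a lesion in the flowering gene FT, which all groups share. Plants were 30 days old at the start and grew at 22 °C on days with 16 h of light and nights of 8 h. Silk microneedles loaded with 15 mM GA3, a gibberellin, stayed in the leaf for 3 h (n = 3), 24 h (n = 3) or 168 h (n = 2). Mock needles, of silk without GA3, were left for 24 h (n = 3), and untreated leaves had no needle and were taken at 0 h (n = 3). No untreated or mock leaves were sampled at 3 h or 168 h, so needle, GA3, hour of harvest and plant age cannot be told apart at those times. No untreated leaves were taken at 24 h. In the rise from 0 h to 24 h, the needle thus cannot be told apart from time and plant age.

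Counts in genes ran from 19458893 to 23928793 per library over the 14 libraries, and between 88.8% and 95.8% of reads lay in genes. Of 5 mesophyll marker genes, all had at least 1 CPM in all groups, while 3 root and 3 floral marker genes stayed under 1 CPM. The quasi-likelihood test of edgeR was fitted to the 20077 genes with enough counts, all 100 members among them, and its p-values were adjusted over those genes by the Benjamini-Hochberg method. A gene is called where the adjusted p is under 0.05. Fitted log2 fold changes are given ± SE.

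Sulfate taken up by a plant is reduced in the leaf to sulfide and built into cysteine, glutathione and, in Arabidopsis and its relatives, the glucosinolates that defend against insects. When sulfur runs short, a small set of genes is known to rise. Among them are the LSU genes, for small proteins named from low-sulfur response, ATSDI1, which restrains glucosinolate synthesis, and sulfate transporters. Wounding of a leaf is known to call on other programmes, such as cross-linking and lignification of the wall by peroxidases, lipid-transfer proteins linked to systemic immunity, and protease inhibitors.

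Genes of sulfur supply and use made up 11 of the 100 members, which were sorted into roles by hand once they were known. A further 5 members belonged to glucosinolate synthesis and transport, 3 to a cluster of lipid-transfer-type proteins, 8 to the cell wall, 6 to nitrogen transport and amino acid metabolism, 9 to defence and signalling, 7 to osmotic stress and 4 to light and flowering. The other 47 had mixed or unassigned roles. All 100 were protein-coding in the reference annotation of TAIR10.1, and 54 had a symbol there. They were spread over chromosome 1 (27 members), chromosome 2 (13), chromosome 3 (19), chromosome 4 (18) and chromosome 5 (23). Roles below are background, and members without a symbol go by their identifier.

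Scores ran from 3.77 for AT4G12500, a lipid-transfer-type protein, to 0.72 for AT4G12980, with a median of 0.94, and 1428 genes scored above 0. After AT4G12500 the highest scores belonged to ATSDI1, the wall peroxidase gene PRX52, AT4G12490 and EARLI1 (both of the lipid-transfer cluster), LSU2 and the ammonium transporter AMT1;2. Just inside the threshold lay AT1G72910 (0.745), the glutathione transferase GSTU5 (0.742) and AT4G12980. Just outside lay AT1G67856 (0.717), AT2G31790 (0.709) and GSTU11 (0.708).

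Untreated replicate 1 weighed on the choice. Without it the rule would keep 34 of the 100 members and take 66 other genes, whose median level in that library was 3.48 log2 units above the mean of the other 2 untreated libraries. Over the 100 members the same median was 0.09, as it was over all genes tested, and untreated replicate 1 was the highest of the 3 untreated libraries for 39 members. The members given here thus leave out genes that were high in that one untreated library. At 24 h, the lowest of the 6 libraries was GA3 replicate 3 for 27 members and mock replicate 3 for another 27.

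**Figure D1:**
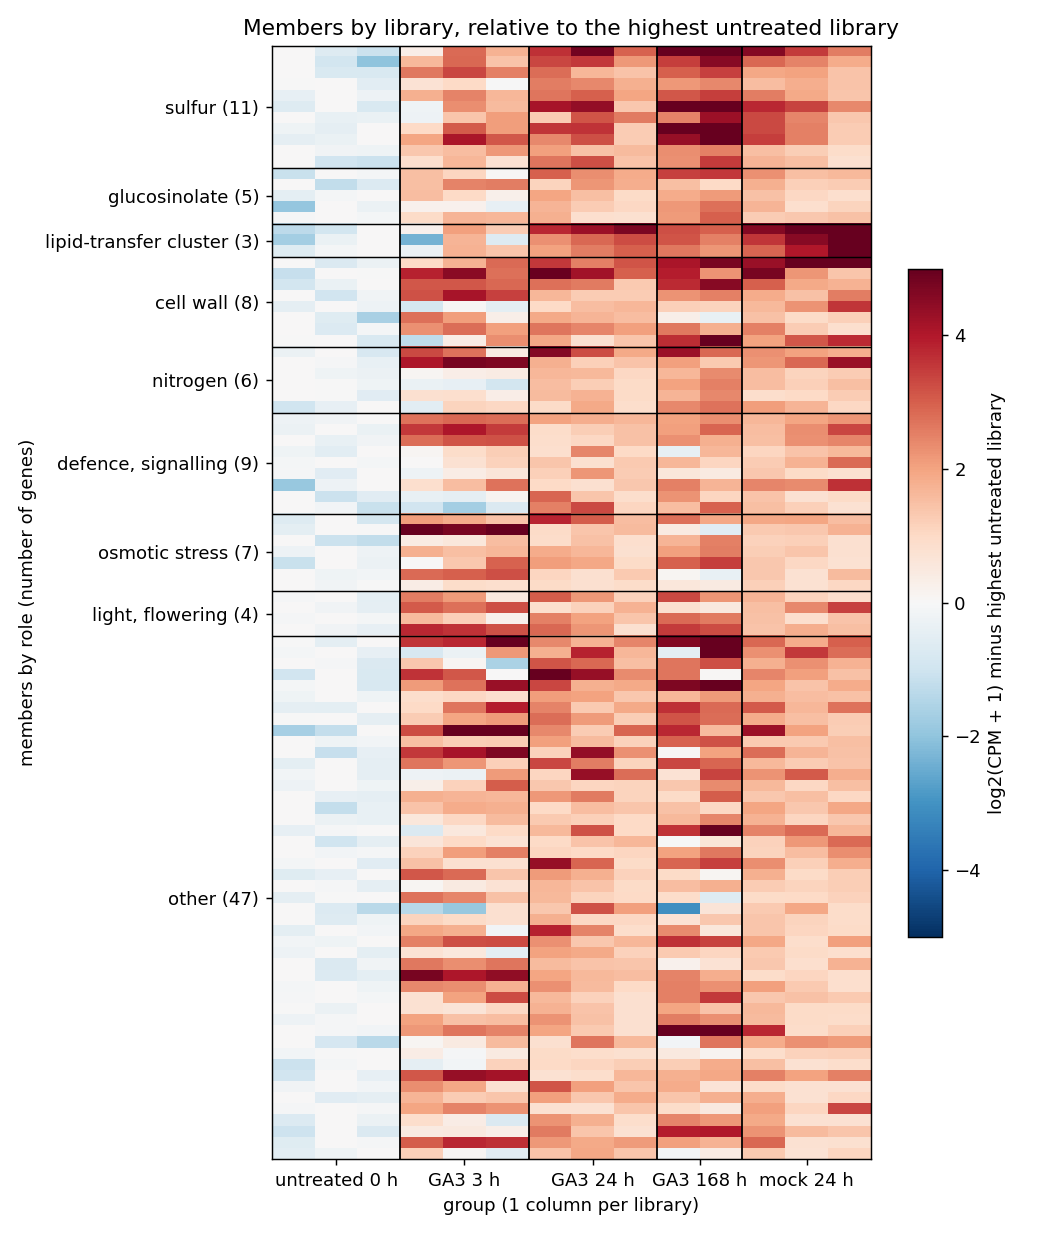
Level of each member in each library as log2(CPM + 1) minus the highest untreated library (colour, with values beyond 5 drawn as 5), with 1 row per gene sorted by role and 1 column per library sorted by group. The 24 h columns are above 0 by the rule. Of the other columns, those at 3 h hold 84 to 92 members above 0 and those at 168 h hold 94 and 96.

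Upstream sequences were read to see what members that moved together share in their letters. Each window is the 250 bases before the annotated gene start in TAIR10.1, written 5′ to 3′ on the strand of the gene. The letters GAGAC, the core of the sulfur-responsive element, lay on either strand in 2 of the 11 sulfur members, in 19 of the 100 members and in 25.8% of 27443 upstream windows. ATSDI1 (chr5:19807854-19808103, minus strand) and AT5G26220 (chr5:9164885-9165134, minus strand) were the holders and are shown with that core, read on the opposite strand, in capitals. It begins 23 bases before the gene start in ATSDI1 and 79 bases before it in AT5G26220.
ATSDI1: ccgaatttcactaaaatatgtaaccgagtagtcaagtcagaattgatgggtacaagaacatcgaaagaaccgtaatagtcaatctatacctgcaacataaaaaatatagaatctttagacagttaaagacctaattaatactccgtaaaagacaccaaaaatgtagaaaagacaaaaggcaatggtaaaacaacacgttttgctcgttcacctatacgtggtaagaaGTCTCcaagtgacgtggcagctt
AT5G26220: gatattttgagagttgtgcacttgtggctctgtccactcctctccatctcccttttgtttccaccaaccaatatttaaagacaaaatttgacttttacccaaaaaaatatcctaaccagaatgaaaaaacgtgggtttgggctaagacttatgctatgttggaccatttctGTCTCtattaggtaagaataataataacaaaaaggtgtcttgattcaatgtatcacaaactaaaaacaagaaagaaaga

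The evening element, AAAATATCT, which circadian and cold-regulated promoters are known to carry, lay on either strand in 7 of the 100 members, against 2.36% of all windows. The holders were AT4G12500, EARLI1, the cinnamoyl-CoA reductase gene CCR2, the low-temperature-responsive AT4G30650, the amino acid permease gene AAP5, AT1G75300 and AT4G13800. AT4G12500 and EARLI1, of the same cluster, share a run of 18 bases that holds the element, so their hits are not independent. The windows of AT1G75300 and AT4G13800 each overlap 1 other gene. EARLI1 (chr4:7406995-7407244, minus strand) is shown with the element, read on the opposite strand, in capitals. It lies 60 bases before the gene start.
EARLI1: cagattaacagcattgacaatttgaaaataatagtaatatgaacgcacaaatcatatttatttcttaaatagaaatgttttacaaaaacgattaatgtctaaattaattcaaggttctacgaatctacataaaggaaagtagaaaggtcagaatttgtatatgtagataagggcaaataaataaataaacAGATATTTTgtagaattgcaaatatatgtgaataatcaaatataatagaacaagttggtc

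Other motifs were searched in the same way on both strands. TTGAC, the W-box core that WRKY factors bind, was in 52 members and 44.9% of all windows. TGACG, the as-1 core, which can overlap TTGAC in the letters TTGACG, was in 19 members and 18.6% of windows. CACGTG, the G-box, was in 10 members and 6.49% of windows, and GCCGCC, the GCC-box, in 0 members and 1.87% of windows. These shares are descriptions of letters in a window and say nothing of binding.

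Most sulfur members were already above untreated leaves at 3 h, and the highest group means of ATSDI1 and the LSU genes lay at 168 h of GA3. The 11 genes were ATSDI1, LSU1, LSU2, LSU3, the sulfate-reducing enzymes APR1 and APR2, the sulfate transporter family members SULTR3;1 and SULTR3;4, the serine hydroxymethyltransferase SHM7, AT5G26220 (a ChaC-like gene of the family that breaks down glutathione) and AT1G04770, a tetratricopeptide repeat protein. ATSDI1 had 8.1, 4.81 and 3.28 CPM in untreated leaves, 10.4, 63.5 and 29.7 CPM at 3 h of GA3, 112, 258 and 68.5 CPM at 24 h of GA3 and 567 and 876 CPM at 168 h of GA3. With mock needles at 24 h it had 219, 102 and 53.3 CPM. The groups at 3 h, 24 h and 168 h of GA3 did not overlap one another, and the mock libraries overlapped GA3 at 24 h.

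LSU1 had 2.16, 3.93 and 1.89 CPM in untreated leaves, 3.24, 23.4 and 13.8 CPM at 3 h of GA3, 84.5, 104 and 11.7 CPM at 24 h of GA3 and 358 and 603 CPM at 168 h of GA3. Mock needles gave 67.1, 49.6 and 25.1 CPM at 24 h. Both 168 h libraries of LSU1 lay above all others, and GA3 replicate 3 at 24 h fell within the range at 3 h. LSU3 is the neighbour of LSU1 on the minus strand of chromosome 3, with no other gene between them over 18372404 to 18375940. It had 2.11, 1.67 and 2.63 CPM in untreated leaves, 6.29, 29.4 and 14.5 CPM at 3 h, 41.8, 44 and 7.8 CPM at 24 h and 142 and 255 CPM at 168 h of GA3, with the same library low at 24 h. LSU2, on chromosome 5, had 12.9, 6.44 and 2.43 CPM in untreated leaves, 42.3, 102 and 36.7 CPM at 3 h, 138, 160 and 61.7 CPM at 24 h and 151 and 322 CPM at 168 h of GA3.

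APR2, one of the enzymes that commit sulfate to reduction, had the highest CPM of the 11 at 24 h. It had 208, 212 and 145 CPM in untreated leaves, 355, 427 and 211 CPM at 3 h, 1270, 1130 and 732 CPM at 24 h and 950 and 1110 CPM at 168 h of GA3, while mock needles gave 626, 749 and 576 CPM at 24 h. The 24 h and 168 h levels with GA3 overlapped, and 1 library at 3 h lay within the untreated range. APR1 averaged 360 ± 120 CPM with GA3 and 240 ± 101 CPM with mock needles at 24 h (SD, n = 3 each), and 50.3 ± 7.45 CPM in untreated leaves (SD, n = 3). Against untreated leaves, every library was higher in 8 of the 11 at 3 h and in all 11 at 168 h, which held for 22.3% and 36.2% of all genes tested. Since the rule had used the untreated levels of these 11 genes, their counts are a description only.

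**Figure D2:**
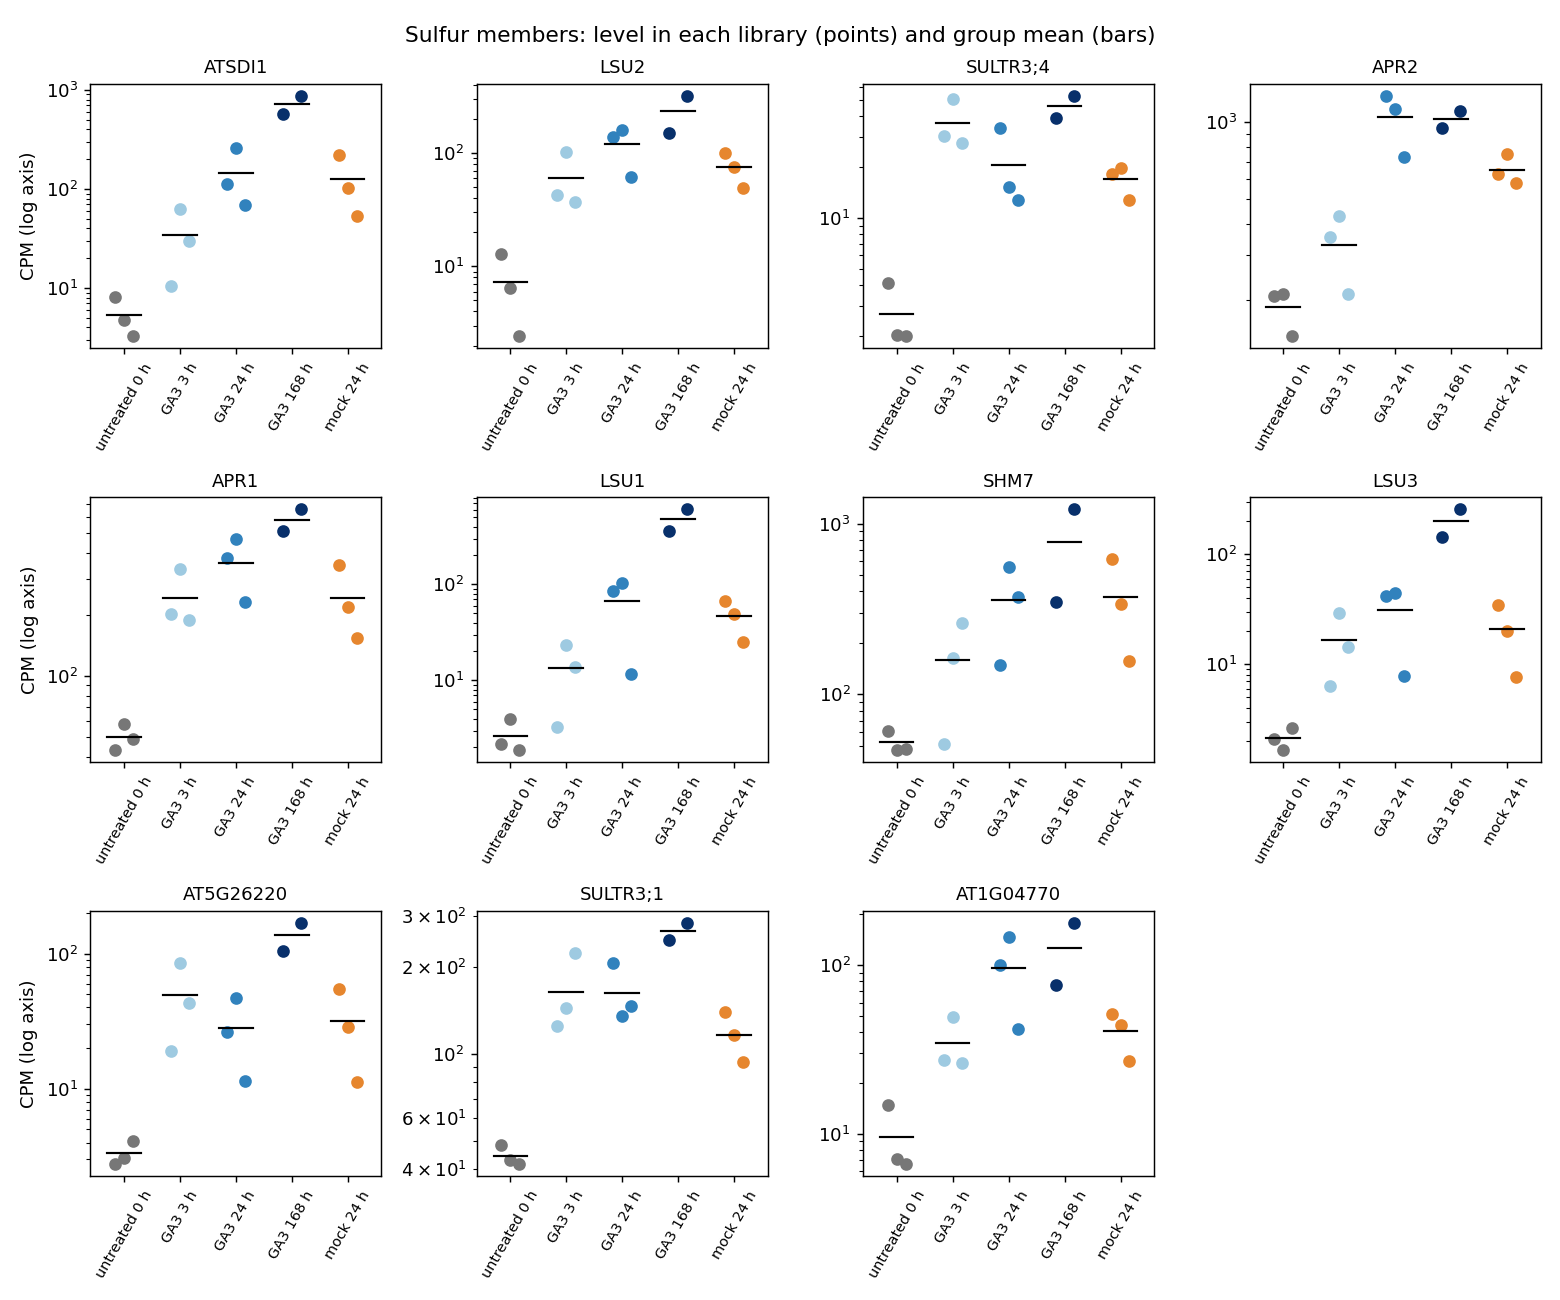
Level of each of the 11 sulfur members in CPM on a log axis, with 1 point per library and a bar at the group mean. Untreated libraries lie below every library at 24 h, by the rule, and below those at 168 h. Both 168 h libraries lie above all others for ATSDI1, LSU1, LSU3, APR1, SULTR3;1 and AT5G26220.

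Between GA3 times, which no part of the rule used, 168 h was compared with 3 h. Over all genes tested 12.5% rose and 15.3% fell. Of the 11 sulfur members 7 rose and 0 fell, with a median fitted log2 fold change of 1.79. LSU1 rose by 5.05 ± 0.91 (edgeR adjusted p = 0.00302) and ATSDI1 by 4.28 ± 0.82 (edgeR adjusted p = 0.00381), and both kept the call without each library in turn, with fits of 5.74 for LSU1 and 5.09 for ATSDI1 without GA3 3 h replicate 2. The call of APR2 also held, with 1.55 ± 0.30 (edgeR adjusted p = 0.00411). LSU3 rose by 3.46 ± 0.79 (edgeR adjusted p = 0.00834), a call that ended without GA3 168 h replicate 2 (0.0653) and whose fit was 4.18 without GA3 3 h replicate 2.

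Of the other 3 calls, each rested on several libraries. AT1G04770 had 1.79 ± 0.54 (edgeR adjusted p = 0.0285), with 1.07 and adjusted p = 0.295 without GA3 168 h replicate 2, 0.0876 without GA3 3 h replicate 1 and 0.0661 without GA3 3 h replicate 3. LSU2 had 1.87 ± 0.63 (edgeR adjusted p = 0.0459), with 1.23 and adjusted p = 0.321 without GA3 168 h replicate 2, 0.131 without GA3 3 h replicate 1 and 0.104 without GA3 3 h replicate 3, and its fit was 2.51 without GA3 3 h replicate 2. APR1 had 1.19 ± 0.39 (edgeR adjusted p = 0.0427), which ended without any library but GA3 3 h replicate 2 (adjusted p from 0.0751 to 0.224) and with the replicate number as a block (0.0502). SHM7 (2.19 ± 0.76), AT5G26220 (1.36 ± 0.71), SULTR3;1 (0.61 ± 0.26) and SULTR3;4 (0.25 ± 0.41) were not called by edgeR. Without GA3 3 h replicate 3 edgeR did call SULTR3;1 (0.89, adjusted p = 0.016). DESeq2 called SHM7 (adjusted p = 0.0134), as edgeR did with total counts as library size (0.0369), without GA3 3 h replicate 3 (0.0341) or without GA3 168 h replicate 1 (2.82, 0.0353), while the fit was 1.04 (edgeR adjusted p = 0.475) without GA3 168 h replicate 2.

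Sulfur-deficiency genes that are not members gave values the rule had no part in. A list of 16 such genes, 9 of them members, had 15 tested and of these 12 rose and 0 fell at 168 h against 3 h. Without GA3 168 h replicate 2 the list had 6 rises. Outside the members 5 of 6 tested genes rose, a count of 3 without GA3 168 h replicate 2. SULTR1;2, a sulfate uptake transporter best known from roots, had 96 and 211 CPM at 168 h, against 3.67, 10.1 and 9.76 CPM at 3 h (4.18 ± 0.59, edgeR adjusted p = 0.000975). SULTR4;2, which releases sulfate from the vacuole, had 89.6 and 150 CPM at 168 h, against 5.91, 13.6 and 26.5 CPM at 3 h (2.86 ± 0.50, edgeR adjusted p = 0.00249). BGLU28, a glucosidase linked to glucosinolate breakdown, had 37.2 and 59.6 CPM at 168 h and 0 counts in all 3 libraries at 3 h. In all 3 genes the 2 groups did not overlap. The fit of SULTR1;2 was 3.51 without GA3 168 h replicate 2 and that of SULTR4;2 was 3.52 without GA3 3 h replicate 3. Against untreated leaves at 3 h, edgeR called 6 rises and 1 fall on the list, where 8.55% of all genes tested rose and 5.64% fell. All 6 rises were members, whose untreated levels the rule had used, and of the 6 tested genes outside the members 0 rose and 1 fell, with 4 at an unadjusted p under 0.05. Against untreated leaves at 168 h, 14 genes of the list rose and 0 fell, where 15.1% and 16.1% of all genes did, and outside the members 5 rose and 0 fell.

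Glucosinolate members had 3 rises and 0 falls at 168 h against 3 h, with a median of 1.07 over 5 genes, where 12.5% of all genes tested rose and 15.3% fell. FMO GS-OX3, which oxidises the side chain of methionine-derived glucosinolates, had 279 and 307 CPM at 168 h, against 74.3, 54.6 and 26.5 CPM at 3 h (2.42 ± 0.45, edgeR adjusted p = 0.00348). CYP79F1, which makes their aldoxime precursors, had 895 and 1330 CPM at 168 h, against 230, 230 and 148 CPM at 3 h (2.37 ± 0.48, edgeR adjusted p = 0.00482). In neither gene did the 2 groups overlap, and both calls held without each library in turn. At 24 h, CYP79F1 had 642, 475 and 406 CPM with GA3 and 646, 356 and 432 CPM with mock needles, against 51.3, 199 and 162 CPM in untreated leaves.

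Their transporters went different ways. GTR2, which moves glucosinolates into cells around the veins, had 300 and 543 CPM at 168 h, against 132, 217 and 215 CPM at 3 h (1.07 ± 0.30, edgeR adjusted p = 0.0228). In edgeR this was lost without GA3 168 h replicate 2 (0.58, adjusted p = 0.297) or GA3 3 h replicate 1 (0.0694). Its relative GTR1 had 228 and 159 CPM at 168 h, against 224, 445 and 467 CPM at 3 h (-1.05 ± 0.46), and was not called by edgeR. The regulator MYB29 had 66.8 and 80.7 CPM at 168 h, against 52.2, 35.5 and 21 CPM at 3 h (0.95 ± 0.36), which edgeR did not call (adjusted p = 0.0652) and DESeq2 (0.0478) and limma-voom (0.0499) did. Without GA3 3 h replicate 1 edgeR did call MYB29 (1.28, adjusted p = 0.0349). Its groups did not overlap.

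Over all members, 168 h against 3 h split the 100 genes. Of them 31 rose and 16 fell, or 47 called against 27.8% of all genes tested, of which 12.5% rose and 15.3% fell. The median fitted log2 fold change was 0.83 over the members, with quartiles of -0.32 and 1.69, and -0.03 over all genes tested. The fit lay above 0 for 70 members and below 0 for 30. Without GA3 168 h replicate 2 the counts were 13 rises and 5 falls. The falls numbered 8 without GA3 168 h replicate 1 and 9 without GA3 3 h replicate 2. Between the same groups, summed xylem markers lay from 10.2 to 28.3 CPM at 168 h and from 75.9 to 98.4 CPM at 3 h, with 3 of 3 lower. Summed epidermis markers lay from 188 to 237 CPM at 168 h and from 832 to 1050 CPM at 3 h, with 2 of 6 lower and PDF1 at 0 at 168 h. Summed phloem markers lay from 603 to 788 CPM at 168 h and from 391 to 429 CPM at 3 h, with SUC2, PP2-A1 and APL called higher and SEOR1 lower. Summed mesophyll markers lay from 17400 to 23300 CPM at 168 h and from 17800 to 32300 CPM at 3 h, with 2 of 5 lower. The part of these shifts in the members' changes was not tested, and in leaf RNA fewer cells of a type and less RNA per cell cannot be told apart.

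**Figure D3:**
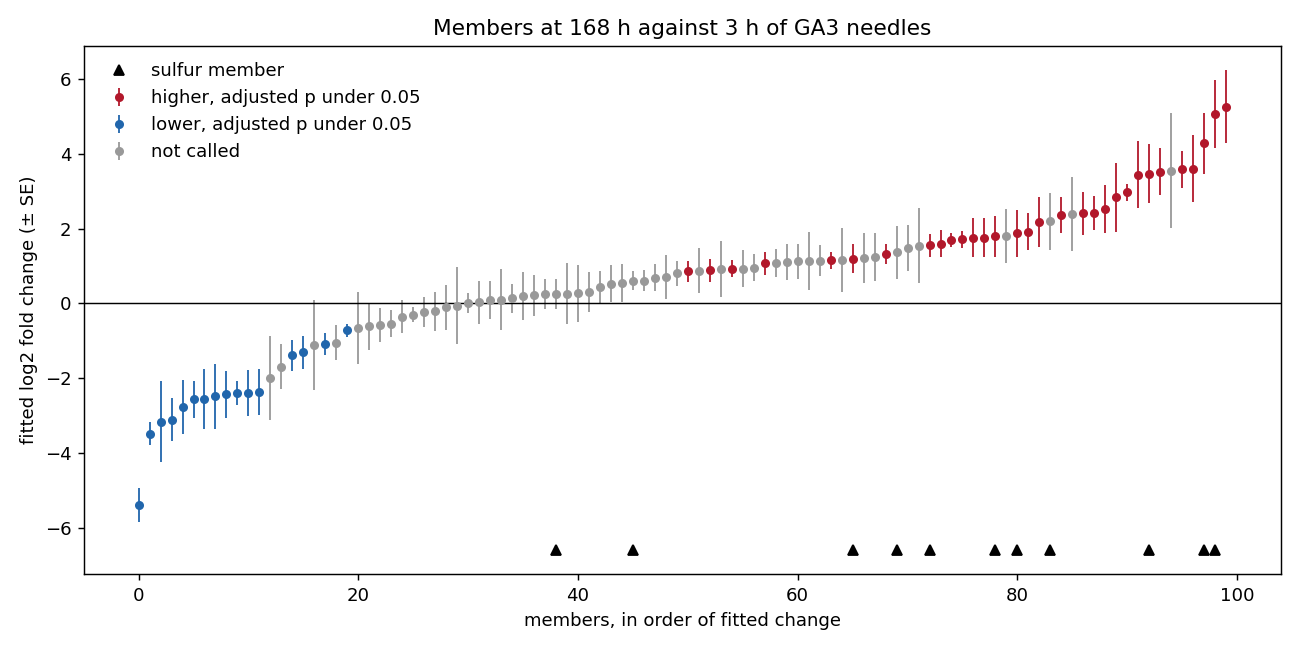
Fitted log2 fold change of each member at 168 h against 3 h of GA3 needles (points, with bars for the SE), in order of size, with triangles under the sulfur members. Red marks the 31 called rises and blue the 16 called falls, and all 11 sulfur members lie above 0.

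Among the largest rises was AT4G20820, a gene of the berberine-bridge type FAD-binding family. It had 25.3 and 133 CPM at 168 h, against 0.286, 2.05 and 3.31 CPM at 3 h (5.26 ± 0.98, edgeR adjusted p = 0.00342), and the fit was 3.64 without GA3 168 h replicate 2, 6.02 without GA3 168 h replicate 1 and 5.97 without GA3 3 h replicate 3. AT3G22550, listed with a DUF581 domain, had 132 and 138 CPM at 168 h, against 10.9, 11.2 and 9.85 CPM at 3 h (3.58 ± 0.49, edgeR adjusted p = 0.000801). PAP1, the MYB factor that switches on anthocyanin synthesis, had 33 and 81.6 CPM at 168 h, against 3.86, 5.89 and 5.05 CPM at 3 h (3.44 ± 0.89, edgeR adjusted p = 0.0154). These groups did not overlap, and PAP1 had at most 0.09 CPM in untreated leaves. PAP1 was not called by edgeR without GA3 168 h replicate 2 (2.65, adjusted p = 0.13) or GA3 3 h replicate 1 (0.0531).

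The largest falls were those of AT4G30650 and PIP2;5, both assigned to osmotic stress. The 7 osmotic stress members had a median of 0.53, with 2 falls and 0 rises, where 15.3% of all genes tested fell and 12.5% rose. AT4G30650, of the low temperature and salt responsive family, had 6.68 and 2.8 CPM at 168 h, against 217, 148 and 209 CPM at 3 h (-5.39 ± 0.45, edgeR adjusted p = 0.000122). In untreated leaves it had 2.97, 4.56 and 4.42 CPM, so that its 168 h libraries lay on both sides of the untreated range. PIP2;5, an aquaporin of the plasma membrane, had 5.37 and 3.64 CPM at 168 h, against 41.1, 46.9 and 55.1 CPM at 3 h (-3.48 ± 0.30, edgeR adjusted p = 0.000122), and untreated leaves had 4.99, 4.18 and 4.42 CPM. Both calls held without each library in turn, with a fit of -6.19 for AT4G30650 without GA3 168 h replicate 1. At 24 h PIP2;5 stood between, with 11.5, 9.43 and 13.7 CPM with GA3 and 14.2, 9.2 and 16.9 CPM with mock needles.

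PIP2;5 lies beside BME3, a GATA-type zinc finger gene and also a member, on chromosome 3 over 20296130 to 20304309. BME3 had 31.5 and 232 CPM at 168 h, against 37.2, 48.3 and 108 CPM at 3 h, and its groups overlapped, unlike those of its neighbour. AT5G52050, a MATE-type efflux carrier, had 1.96 and 10.3 CPM at 168 h, against 31.7, 47.9 and 71.6 CPM at 3 h (-3.16 ± 1.08, edgeR adjusted p = 0.0481). That call ended without any 1 of the 5 libraries (adjusted p from 0.0614 to 0.207), and with the replicate number as a block (0.0564), the fit being -2.40 without GA3 168 h replicate 1 and -4.78 without GA3 168 h replicate 2.

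Of the other 5 osmotic stress members edgeR called none, the lowest adjusted p being 0.0593 for PP2CA (unadjusted p = 0.0178). P5CS1, which makes proline, had 1070 and 1500 CPM at 168 h, against 136, 345 and 1030 CPM at 3 h, and PP2CA, a phosphatase of abscisic acid signalling, had 258 and 448 CPM, against 104, 116 and 228 CPM. In both the groups did not overlap. ANNAT1, an annexin, had a fit of -0.31 ± 0.20, with 248 and 233 CPM at 168 h and 218, 322 and 303 CPM at 3 h.

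Nitrogen members had 4 rises and 1 fall among 6 at 168 h against 3 h, beside shares of 12.5% and 15.3% over all genes. ASP4, an aspartate aminotransferase, had 34.7 and 48.8 CPM at 168 h, against 5.95, 5.54 and 3.57 CPM at 3 h (2.97 ± 0.23, edgeR adjusted p = 0.000122). Its 3 h libraries lay below every untreated library, at 7.74, 7.73 and 6.46 CPM. The oligopeptide transporter OPT7 (1.71 ± 0.23, edgeR adjusted p = 0.000781) rose too, and these 2 calls held without each library in turn. AAP5 rose by 1.32 ± 0.26 (edgeR adjusted p = 0.00452), a call that ended without GA3 168 h replicate 2 (0.0805). AT3G56200, an amino acid transporter, rose by 1.76 ± 0.52 (edgeR adjusted p = 0.0278), and its call ended without GA3 168 h replicate 1 (0.0559), GA3 168 h replicate 2 (0.149) or GA3 3 h replicate 1 (0.0652).

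AAP3, an amino acid permease, went the other way. It had 5.91 and 3.19 CPM at 168 h, against 26.4, 43.9 and 41.9 CPM at 3 h (-3.11 ± 0.58, edgeR adjusted p = 0.00346), and untreated leaves had 0.675, 0.627 and 0.298 CPM. The groups did not overlap, and the call held without each library in turn. AMT1;2, an ammonium transporter, had 119 and 44.4 CPM at 168 h, against 60.8, 39.9 and 7.26 CPM at 3 h, which overlapped and was not called. Of 9 amino acid permease genes on a list, 8 were tested, and 3 rose and 1 fell at 168 h against 3 h.

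Cell wall members had 3 rises and 2 falls among 8, with the same shares of 12.5% and 15.3% over all genes. PRX52, a peroxidase of lignin formation, had 1.89, 0.752 and 1.34 CPM in untreated leaves, 4.76, 8.54 and 19.7 CPM at 3 h, 32.4, 15.7 and 24.5 CPM at 24 h and 48.6 and 76.6 CPM at 168 h of GA3. It rose between the GA3 times (2.41 ± 0.57, edgeR adjusted p = 0.0102), a call that ended without GA3 168 h replicate 2 (0.0864) and whose fit was 3.14 without GA3 3 h replicate 3. AT2G45220, of the pectin methylesterase family, had 86.7 and 284 CPM at 168 h, against 1.81, 7.59 and 32.7 CPM at 3 h (3.60 ± 0.90, edgeR adjusted p = 0.0129). Without GA3 168 h replicate 2 edgeR did not call it (2.52, adjusted p = 0.132), and the fit was 4.23 without GA3 168 h replicate 1 and 5.19 without GA3 3 h replicate 3. Neither gene's groups overlapped.

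CCR2, for a lignin pathway enzyme, was higher early. It had 18 and 21.7 CPM at 168 h, against 35.1, 69.3 and 42 CPM at 3 h (-1.39 ± 0.41, edgeR adjusted p = 0.0255), while untreated leaves had 3.01, 1.09 and 2.58 CPM. Its groups did not overlap, but the call ended without GA3 168 h replicate 1 (0.115), GA3 168 h replicate 2 (0.111) or GA3 3 h replicate 2 (0.0882). The other fall, of XTH31 (-2.49 ± 0.86, edgeR adjusted p = 0.05 after rounding), ended with limma-voom (0.11) or without GA3 3 h replicate 1 (0.142). The other rise, of the peroxidase gene PA2 (1.76 ± 0.51, edgeR adjusted p = 0.0238), ended with limma-voom (0.0582) or without GA3 3 h replicate 1 (0.0783). Further settings also ended both calls. On a list of 10 wall peroxidase genes, 9 were tested, of which 2 rose and 2 fell between the same times.

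Defence and signalling members gave 2 rises and 3 falls among 9, beside 12.5% and 15.3% of all genes tested. MLO12, of the family that conditions powdery mildew entry, had 18.4 and 33.6 CPM at 168 h, against 53.3, 75.2 and 52 CPM at 3 h (-1.31 ± 0.44, edgeR adjusted p = 0.0447). The protease inhibitor gene AT2G38870 had 119 and 81.7 CPM at 168 h, against 168, 215 and 220 CPM at 3 h (-1.08 ± 0.30, edgeR adjusted p = 0.0198), and PSK5, which encodes a precursor of the peptide hormone phytosulfokine, had 33.7 and 42.8 CPM, against 55.8, 63.3 and 59.6 CPM (-0.72 ± 0.17, edgeR adjusted p = 0.0101). None of these 3 pairs of groups overlapped. The call of MLO12 ended without any library but GA3 3 h replicate 3 (adjusted p from 0.0663 to 0.235), that of AT2G38870 without GA3 168 h replicate 2 (0.171) or GA3 3 h replicate 2 (0.0534) and that of PSK5 without GA3 168 h replicate 1 (0.0807). AT1G72910, with a TIR domain as in immune receptors, had 58 and 157 CPM at 168 h, against 9.62, 5.34 and 11.3 CPM at 3 h (3.52 ± 0.62, edgeR adjusted p = 0.00259), and the fit was 2.64 without GA3 168 h replicate 2. WRKY62, a defence transcription factor, had 9.05 and 3.44 CPM at 168 h, against 0.619, 0.549 and 1.32 CPM at 3 h (2.83 ± 0.93, edgeR adjusted p = 0.0408). Its groups did not overlap, but its call ended without any library but GA3 3 h replicate 3 (adjusted p from 0.0711 to 0.22), with a fit of 1.93 without GA3 168 h replicate 1.

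Members of light response and flowering were all above untreated leaves in every library at 3 h and at 168 h. Over all genes tested this held for 22.3% at 3 h, 36.2% at 168 h and 12.9% at both. The rule had used the untreated levels of these members. GI, a clock gene that promotes flowering, had 6.7, 5.73 and 4.72 CPM in untreated leaves, 105, 94.5 and 68.1 CPM at 3 h, 55.8, 34.1 and 12.3 CPM at 24 h and 86.6 and 73.7 CPM at 168 h of GA3. The 168 h libraries lay within the range at 3 h. ELIP1, a light stress protein of the thylakoid, had 49.9 and 42.7 CPM at 168 h, against 20.8, 15.4 and 7.34 CPM at 3 h (1.60 ± 0.37, edgeR adjusted p = 0.00851). Reads of FT, the gene with the lesion in this line, had 9.09 and 7.12 CPM at 168 h, against 46.4, 38 and 52.5 CPM at 3 h (-2.57 ± 0.49, edgeR adjusted p = 0.00371), a call that ended without GA3 168 h replicate 2 (0.051). Neither gene's groups overlapped.

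Set against untreated leaves, most members were high at 3 h and at 168 h too, in libraries that had no part in the choice of members, although the untreated libraries did. Every 3 h library lay above every untreated library for 76 members, against 22.3% of all genes tested, and every 168 h library for 90 members, against 36.2%. Both held for 69 members, against 12.9%. The 3 h condition alone held for 7 members, the 168 h condition alone for 21 and neither for 3, which were AT1G77640, GPAT3 and AT4G12980. Over the 3 GA3 times, the highest mean log2 level lay at 3 h for 21 members, at 24 h for 24 and at 168 h for 55, against 34.0%, 19.4% and 46.7% of all genes tested. Every 168 h library exceeded every GA3 library at 24 h for 40 members, near the 39.4% of all genes, and every 3 h library did so for 20, against 24.3%. Summed over the members, CPM ran from 2180 to 2525 in untreated leaves, from 6220 to 9532 at 3 h, from 7863 to 12400 at 24 h with GA3, from 8715 to 10668 at 24 h with mock needles and from 14049 to 19809 at 168 h.

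GA3 needles were compared with mock needles at the matched time of 24 h. The rule asked for high levels in all 6 of these libraries, so genes high with only a single kind of needle could not become members. The comparison thus does not show whether GA3 acts on the rise from 0 h to 24 h. It describes how far the members differed between the needles under that condition. By edgeR's test 0 of the 100 members rose and 0 fell, as for 0.0% of all genes tested, and the lowest adjusted p among the members was 0.66. With an unadjusted p under 0.05 there were 14 members higher and 10 lower with GA3, or 24 in all, against 6.58% of all genes tested (3.66% higher and 2.92% lower). DESeq2 called 0 members higher and 2 lower, where it called 0.0923% and 0.146% of its genes, and limma-voom called 0. The median fitted log2 fold change was 0.29 over the members and 0 over all genes tested, and the fit lay above 0 for 63 members and below 0 for 37. Every GA3 library exceeded every mock library for 4 members, against 5.07% of all genes tested, and lay below every mock library for 9, against 9.23%.

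The members called by DESeq2 were PRX52 and AAP3. PRX52 had 32.4, 15.7 and 24.5 CPM with GA3 and 56.1, 91.4 and 193 CPM with mock needles at 24 h (-2.12 ± 0.53 and adjusted p = 0.66 in edgeR, -2.11 ± 0.52 and adjusted p = 0.037 in DESeq2). AAP3 had 4.69, 2.8 and 3.56 CPM with GA3 and 6.82, 11.4 and 32 CPM with mock needles (-2.06 ± 0.48 and adjusted p = 0.66 in edgeR, -2.05 ± 0.49 and adjusted p = 0.0257 in DESeq2). In both genes every GA3 library lay below every mock library, and mock replicate 3 was the highest. Without that library the edgeR fit of AAP3 was -1.29. TI1, for a trypsin inhibitor, had 46.3, 39.4 and 58.6 CPM with GA3 and 125, 120 and 294 CPM with mock needles (-1.77 ± 0.59, edgeR adjusted p = 0.75), again without overlap.

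The 3 lipid-transfer genes EARLI1, AT4G12490 and AT4G12500 lie together on chromosome 4. In the annotation 1 small gene stands between each pair. All 3 averaged less with GA3 than with mock needles. EARLI1 had 72.6, 107 and 141 CPM with GA3 and 136, 288 and 829 CPM with mock needles, against 10.9, 16 and 17.1 CPM in untreated leaves. AT4G12490 had 61, 91.5 and 121 CPM with GA3 and 150, 296 and 552 CPM with mock needles, against 2.83, 9.03 and 11.6 CPM in untreated leaves. AT4G12500 had 37.7, 53.8 and 72.8 CPM with GA3 and 68, 123 and 205 CPM with mock needles, against 0.135, 0.501 and 1.84 CPM in untreated leaves.

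The GA3 and mock libraries overlapped for EARLI1 and AT4G12500 and did not for AT4G12490. The fitted difference of EARLI1 was -1.80 ± 0.61 (edgeR adjusted p = 0.75), and -0.94 without mock replicate 3. At 168 h against 3 h the 3 genes had fits of 1.21 ± 0.66, 2.38 ± 0.99 and 1.80 ± 0.71, in the order EARLI1, AT4G12490 and AT4G12500, and edgeR called none (adjusted p = 0.187, 0.0911 and 0.0795). DESeq2 called AT4G12490 (0.0379), and limma-voom called it (0.0177) and AT4G12500 (0.0289). With the replicate number as a block edgeR called all 3 (adjusted p = 0.0288, 0.0316 and 0.0168), and it called AT4G12490 also without GA3 3 h replicate 2 (4.33, adjusted p = 0.0117). That library was the highest of the 3 h group for each gene. How alike the transcripts of the 3 genes are was not examined. If they share long stretches, reads could be lost or misassigned, so the levels of single genes in this cluster are uncertain. Of a list of 6 genes around EARLI1 and its relative AZI1, 5 were tested, and 0 rose and 0 fell at 168 h against 3 h, with 2 of the 5 at an unadjusted p under 0.05. DESeq2 called 1 of them and limma-voom 2.

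On the side higher with GA3, the members with the largest fits among those with a mean of at least 5 CPM at 24 h varied widely among the GA3 libraries. AT2G27420, a cysteine protease gene, had 118, 45.7 and 10.9 CPM with GA3 and 11.5, 8.58 and 5.41 CPM with mock needles (2.79 ± 1.10, edgeR adjusted p = 0.75), and AMT1;2 had 149, 59.7 and 22.3 CPM with GA3 and 29.8, 24.6 and 21.2 CPM with mock needles (1.64 ± 0.72, edgeR adjusted p = 0.75). AT5G42760, a methyltransferase, had 48.6, 18.6 and 5.36 CPM with GA3 and 8.11, 6.32 and 5.7 CPM with mock needles (1.87 ± 0.76). AT3G24460, a Serinc-domain protein, had 88.6, 32.7 and 7.71 CPM with GA3 and 21.3, 9.15 and 14.6 CPM with mock needles (1.55 ± 0.61). In all 4 genes GA3 replicate 1 was the highest and GA3 replicate 2 also lay above every mock library, while GA3 replicate 3 lay within or below the mock range. Without GA3 24 h replicate 1 the fits were 1.85 for AT2G27420, 0.83 for AMT1;2, 0.96 for AT5G42760 and 0.56 for AT3G24460. Of the reads over AT5G42760, 62.4% lay on the counted strand, the lowest share but one among the members. Every GA3 library lay above every mock library for 4 members, against 5.07% of all genes tested. These members were described after their values were seen. XTH31 had 11.4, 9.96 and 8.91 CPM with GA3 and 8.26, 5.55 and 6.82 CPM with mock needles (0.64 ± 0.70). AT4G12980 had 35.3, 51.4 and 34.2 CPM with GA3 and 33, 21.4 and 27.7 CPM with mock needles (0.65 ± 0.39). AT5G66740, listed with a DUF620 domain, had 13.2, 5.78 and 3.3 CPM with GA3 and 2.1, 1.75 and 1.79 CPM with mock needles (2.02 ± 0.58, edgeR adjusted p = 0.705). AT1G51090, of a heavy metal transport and detoxification family, had 9.51, 7.35 and 6.9 CPM with GA3 and 4.16, 4.68 and 3.87 CPM with mock needles (0.98 ± 0.28, edgeR adjusted p = 0.705).

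**Figure D4:**
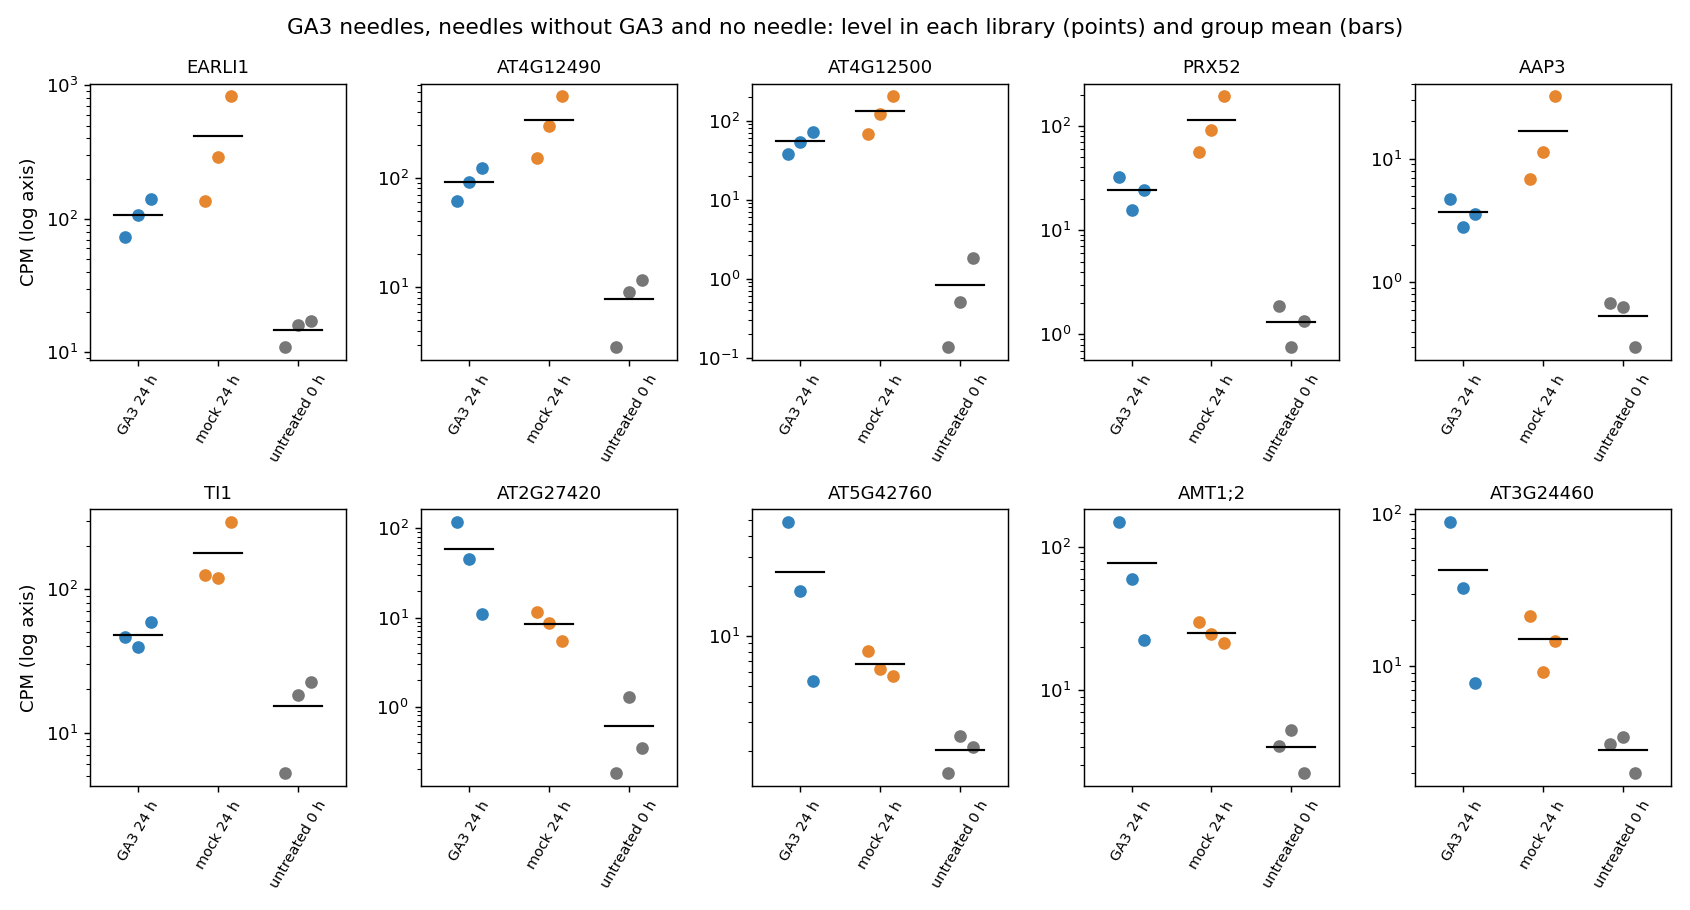
Level in CPM on a log axis of 10 members at 24 h of GA3 needles, 24 h of mock needles and in untreated leaves, with 1 point per library and a bar at the group mean. PRX52, AAP3, TI1 and AT4G12490 have every GA3 library below every mock library, and GA3 replicate 1 is the highest point of AT2G27420, AT5G42760, AMT1;2 and AT3G24460.

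Sulfur members showed no called difference between the needles at 24 h, with fits above 0 in 10 of 11 and a median of 0.54. The largest was that of AT1G04770, with 99.9, 146 and 41.6 CPM with GA3 and 51.1, 44.1 and 27 CPM with mock needles, which overlapped. SHM7 had 149, 555 and 370 CPM with GA3 and 617, 337 and 156 CPM with mock needles, and their ranges largely coincided. Of the 15 tested genes on the sulfur-deficiency list, edgeR, DESeq2 and limma-voom each called 0 between the needles, with 2 at an unadjusted p under 0.05, and the 6 outside the members had a median fit of -0.10.

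Lists of other pathways that could mark a wounded or ageing leaf held few or no members. Only 100 of the 20077 genes tested are members, so a low count in lists this short says nothing about these pathways. At 168 h against 3 h edgeR called 12.5% of all genes higher and 15.3% lower. By its test 4 of 13 anthocyanin genes rose and 0 fell, with 1 member, PAP1. Of 25 tested tau-class glutathione transferases, 5 rose and 3 fell, and the member GSTU5 had 263 and 215 CPM at 168 h and 517, 881 and 794 CPM at 3 h (-1.70 ± 0.60, edgeR adjusted p = 0.0526, with 0.0115 by DESeq2 and 0.048 by limma-voom). Lists with 0 members were camalexin and indole metabolism (1 rise and 2 falls among 14), salicylic acid (1 and 0 among 13), coumarin and iron (2 and 1 among 5), jasmonate outputs (0 and 0 among 12) and leaf senescence (4 and 0 among 9). DESeq2 and limma-voom each called 8 of the camalexin genes and 3 of the coumarin and iron genes, and called 3 and 0 of the salicylic acid genes and 4 and 5 of the senescence genes. Of the 12 jasmonate genes 2 had an unadjusted p under 0.05, and DESeq2 called 2 and limma-voom 0. Between GA3 and mock needles at 24 h edgeR and limma-voom called 0 genes on each of the 11 pathway lists, DESeq2 called at most 1 per list, and at most 4 per list had an unadjusted p under 0.05.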

How the data were processed

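RNA-seq libraries of ft-10 rosette leaves were analysed from the gene counts that the authors deposited, raw counts per gene made with STAR 2.7.7a on TAIR10 per the submitters' processing notes. The annotation used for counting was not given in the sources used here. The column counted on the reverse strand was used, rows of unassigned reads were left out, and between 4.86% and 5.51% of reads in genes lay on the opposite strand. CPM was computed over each library's sum of gene rows, and 1 was added before log2.

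All 14 libraries were fitted together, with 1 coefficient per group, by edgeR 4.0.16 (R 4.3.3; TMM sizes, filterByExpr, quasi-likelihood F test). SE is the fold change over the square root of F. Alternatives were DESeq2 1.42.0, limma-voom 3.58.1, other sizes and filters, the 2 groups alone, a replicate block and leaving out each library. On simulated counts for 168 h against 3 h, over 19780 genes, 74% of genes changed 4-fold and 14% of those changed 2-fold were recovered. For GA3 against mock needles, over 19778 genes, these shares were 89% and 22%. The changed genes, 100 per fold size, were drawn from genes with higher counts, and all others had no change. edgeR called 92 and 115 genes in these simulations, against 5578 and 0 in the data. The adjustment for multiple tests thus differed, and the shares do not give the recovery in the data. Figures were drawn with matplotlib 3.10.9.

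The members, gene lists and tests were chosen with earlier results of these data known, and the roles after the members were known. Genes were named by score, list membership, position, level and largest change, by a fixed rule. Other members named, among them MLO12, PSK5, GI, CCR2 and AT4G13800, were chosen after their values were seen. The design text calls replicates biological. No human samples were used. Upstream sequences and gene positions come from RefSeq's TAIR10.1 genome.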

Additional observations from a re-analysis of the deposited data

How the results depend on the processing

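Leaving out each library in turn moved the rises among the members at 168 h against 3 h between 13 (without GA3 168 h replicate 2) and 37, the falls between 5 and 15 (8 without GA3 168 h replicate 1, 5 without GA3 168 h replicate 2, 9 without GA3 3 h replicate 2) and the median fold change between 0.63 and 0.94. The falls numbered 10 with the 2 groups fitted alone. The cause was not tested. Fitting the 2 groups alone also ended the calls of APR1, LSU2, GTR2, AT2G45220, AT3G56200, CCR2, XTH31, AT2G38870, MLO12 and PSK5 (edgeR adjusted p from 0.0502 to 0.0977). Total counts as library size ended those of MLO12 (0.0664), XTH31 (0.058) and AT5G52050 (0.0508). The sulfur list had 6 to 12 rises and its genes outside the members 3 to 5, counts added after seeing the data. Between GA3 and mock needles at 24 h DESeq2 called 2 members lower, and the median ranged from 0.17 to 0.5 without each library. The rule kept 34 to 90 of the 100 members without each library it used. Of 55 named results none changed direction. Leaving out a library ended 56 calls and added 5, and the other settings ended 21 and added 16.

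Replicate numbers showed no clear pairing over all groups. Over 18 same-numbered pairs the deviations from group means correlated at -0.37 to 0.44, and a library was closest to its own number in 15 of 36 checks. Between GA3 and mock needles at 24 h, same-numbered libraries correlated at 0.07 to 0.44 and differently numbered ones at -0.36 to 0.19. With the replicate number as a block the members had 31 rises and 15 falls at 168 h against 3 h, a median of 0.76, and 0 calls between GA3 and mock needles with a median of 0.28. The group at 168 h has 2 libraries, so its spread rests largely on the other groups.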
